A study of Mus musculus with 5 samples.

Results

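The engulfment receptors *Mertk*, *Axl* and *Tyro3*, their ligands *Gas6* and *Pros1*, the Rac activators *Elmo1* and *Dock1*, and the scavenger receptors *Scarb1* and *Cd36* were followed across the cell types and times of a mouse testis series. These 9 genes were chosen by symbol, and all were found among the 27998 features of the count tables. The samples were whole testes in which the seminiferous cycle had been synchronized, profiled cell by cell, with 1 library at each of 5 times. The 0 h library is titled a control, and those at 144, 350.4, 556.8 and 763.2 h carry the titles EP1 to EP4, which no source used here explains. The design text speaks, for the series as a whole, of repeated returns of the stages at which mature spermatids are released. At 144 h 0 of 6385 kept cells were called round or elongating spermatids, which allows a share of up to 0.0470% for each. No source used here states the strain, the age, how many animals went into a library or the synchronizing agent.

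In the testis most dying germ cells and residual bodies are taken up by Sertoli cells, the nurse cells inside the tubule, while macrophages lie outside it. MERTK, AXL and TYRO3 are receptor tyrosine kinases, together called TAM receptors, that do not touch the dying cell themselves. The secreted proteins GAS6 and PROS1 bridge them to phosphatidylserine exposed on its surface. Uptake then needs actin to be rearranged, which ELMO1 and DOCK1 drive together by activating the small GTPase RAC1. SCARB1, a receptor for high-density lipoprotein that also binds phosphatidylserine, and CD36, a receptor for oxidized lipids and thrombospondin, are scavenger receptors.

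The promoters of *Mertk*, *Elmo1* and *Pros1*, which passed 2-fold between Sertoli-like sums of different times, are shown with that of *Axl*, which did not. Each is the stretch of 250 bases before a RefSeq start in GRCm38.p6 (mm10), written in the direction of the gene. They lie at chr2:128698665-128698914 (plus strand), chr13:20090257-20090506 for the first of the *Elmo1* starts (plus strand), chr16:62854057-62854306 (plus strand) and chr7:25788734-25788983 (minus strand). Capitals mark the GC box, GGGCGG on either strand, and longer runs of capitals hold overlapping matches.
Mertk: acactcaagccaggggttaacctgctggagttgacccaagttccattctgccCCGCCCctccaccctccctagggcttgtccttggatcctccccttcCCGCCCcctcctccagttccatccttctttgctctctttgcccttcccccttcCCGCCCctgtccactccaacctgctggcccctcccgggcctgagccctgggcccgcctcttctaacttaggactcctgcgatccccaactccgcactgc
Elmo1: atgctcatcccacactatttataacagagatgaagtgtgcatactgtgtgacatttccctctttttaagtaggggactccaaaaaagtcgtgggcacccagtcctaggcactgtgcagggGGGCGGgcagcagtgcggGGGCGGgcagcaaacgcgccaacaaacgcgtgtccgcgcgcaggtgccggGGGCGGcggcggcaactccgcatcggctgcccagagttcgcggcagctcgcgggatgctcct
Pros1: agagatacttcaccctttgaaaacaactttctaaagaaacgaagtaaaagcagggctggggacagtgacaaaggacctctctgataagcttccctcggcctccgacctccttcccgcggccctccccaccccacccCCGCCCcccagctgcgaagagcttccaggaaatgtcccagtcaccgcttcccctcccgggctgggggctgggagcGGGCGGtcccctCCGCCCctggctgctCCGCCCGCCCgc
Axl: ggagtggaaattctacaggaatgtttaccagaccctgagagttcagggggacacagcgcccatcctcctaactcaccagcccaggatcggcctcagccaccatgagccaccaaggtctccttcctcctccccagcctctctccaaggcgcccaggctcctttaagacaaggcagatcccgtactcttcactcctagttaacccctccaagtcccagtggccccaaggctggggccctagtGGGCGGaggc
These windows hold 3 GC boxes for *Mertk*, 3 for *Elmo1*, 5 for *Pros1* and 1 for *Axl*. Those of *Tyro3*, *Gas6* and *Dock1*, which did not pass 2-fold in Sertoli-like cells either, hold 3, 4 and 3, that of *Cd36* holds 2, and that of the other *Elmo1* start holds 0, so the number does not set the called genes apart. Of all promoters, 32.7% of 32851 hold at least 1 in the same length. The other letters searched on both strands were AAGGTCA, the site of Nr5a1 and related receptors, TGACGTCA, the cyclic AMP response element, and TGANTCA, the AP-1 site. They stand in 4.08%, 1.55% and 6.75% of all promoters and have no match in these 4 windows. Entries were found for 8 of the 9 genes, all but *Scarb1*.

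In GRCm38 *Mertk* spans chr2:128698956-128802894 (plus strand), *Axl* chr7:25757273-25788705 (minus strand), *Tyro3* chr2:119797733-119818104 (plus strand), *Gas6* chr8:13465374-13494490 (minus strand) and *Pros1* chr16:62854307-62929346 (plus strand). *Elmo1* spans chr13:20090596-20608353 (plus strand), *Dock1* chr7:134670654-135173639 (plus strand), *Scarb1* chr5:125277087-125341094 (minus strand) and *Cd36* chr5:17781690-17888801 (minus strand).

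Levels are in CPM, UMI counts scaled to a fixed total, from the UMIs of all cells of a class added up within a library, where a UMI marks 1 captured RNA molecule. They are not set against each other between genes. With 1 library per time no difference has a replicate check or a test: the 95% intervals in brackets cover counting error only, and every difference is one between libraries. A gene was measured with at least 20 UMIs in both sums together, and was called higher or lower where the interval of the ratio lay wholly beyond 2-fold. Cell classes were rebuilt by clustering and named from marker genes, to which none of the 9 belongs. The libraries held 7441 to 11987 barcodes and 75578147 to 118147393 UMIs, and pairs of libraries shared 11 to 37 barcode sequences.

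Sertoli-like cells numbered 3153, 2381, 542, 47 and 16 in time order, and the last are too few for a value. For 763.2 h, cells of under 50% mitochondrial UMIs (in place of 20%) were therefore clustered anew, which gave 77 Sertoli-like cells there and 1635 at 0 h. The 0 h class was thus named differently as well: its median depth was 13847 UMIs in place of 4830.0. Stromal-like cells of 0 h numbered 940 in place of 518, and unnamed ones 1164 in place of 504. The part of this renaming in the ratios of 763.2 to 0 h was not tested. Macrophage-like cells numbered 277, 39, 28, 22 and 24. The Sertoli-like class was held by different clusters over time: cluster 5 carried 62.1% of its UMIs at 0 h, clusters 12 and 23 carried 51.6% and 38.0% at 144 h, and cluster 65 carried 68.1% and 94.3% at 350.4 and 556.8 h. The 12 Sertoli markers summed to 12440.1, 22054, 22822 and 19234 CPM in these sums, and the 9 macrophage markers to 3.03, 3.19, 1.01 and 1.72 CPM, against 10027, 26797, 16811 and 9859 CPM in macrophage-like cells. Of the 9, 7 were at 0 at 350.4 and 556.8 h. The mitochondrial share of the Sertoli-like UMIs was 7.05%, 14.1%, 15.5% and 16.8%, and the 7 markers of elongating spermatids summed to 1.70, 0.532, 328 and 3353 CPM. The part of these differences in the results was not tested.

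In Sertoli-like cells a receptor (*Mertk*), a Rac activator (*Elmo1*) and a scavenger receptor (*Scarb1*) were higher at 144 h than at 0 h. These were 3 of 8 genes measured, and none was lower, where 7.57% of 14087 genes were higher and 14.1% were lower. The median log2 ratio was 0.79 over the 8 and -0.12 over all genes measured. *Cd36*, with 10 and 5 UMIs, was not measured.

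*Mertk* encodes the TAM receptor best known for phagocytosis, in macrophages, Sertoli cells and the retinal pigment epithelium. At 0, 144, 350.4 and 556.8 h it stood at 7.63 (6.75 to 8.60), 25.9 (24.1 to 27.7), 15.8 (11.6 to 21.1) and 14.7 (8.54 to 23.5) CPM in Sertoli-like cells. The 0 h library was lowest and the 144 h library highest, and the intervals of 0 and 556.8 h met only at their ends. The ratio of 144 to 0 h was 3.39 (2.95 to 3.90), and that of 350.4 to 144 h was 0.612 (0.446 to 0.822). With cells of under 10% mitochondrial UMIs the former was 1.80 (1.30 to 2.44), which ends the call, and with cells of under 50% the latter was 0.965 (0.837 to 1.11). In the 10% clustering 960 Sertoli-like cells of 144 h lay in a cluster with a median of 1603 UMIs, with 82 and 27 in deeper ones. Inside the 144 h library *Mertk* was 29.1 and 26.4 CPM in the deep clusters 12 and 23, and 7.90 in cluster 6, whose cells had a median of 1656 UMIs. Among cells of at least 10000 UMIs the ratio of 144 to 0 h was 3.42 (2.94 to 3.99). The part of depth in the lost call was not tested.

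*Axl* encodes the receptor that binds GAS6 but not PROS1. In the same order of times it was 72.1 (69.4 to 75.0), 132 (128 to 136), 68.7 (59.6 to 78.8) and 80.2 (64.7 to 98.2) CPM. In these sums only the 144 h library stood apart, and the other intervals overlapped. In cells of under 50% mitochondrial UMIs 144 h was also highest, at 134 (130.2 to 138) CPM. There 556.8 h, at 102 (89.3 to 115), lay above 0 h, at 75.4 (72.3 to 78.6), and 350.4 h, at 78.2 (72.9 to 83.9). Its ratio was 1.83 (1.74 to 1.92) for 144 against 0 h and 0.521 (0.451 to 0.600) for 350.4 against 144 h, so it passed 2-fold in neither.

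*Tyro3*, the receptor also prominent in the nervous system, was 171 (167 to 175), 148 (143 to 152), 118 (106 to 131) and 139 (118 to 162) CPM. It was highest at 0 h, and the intervals of 350.4 and 556.8 h overlapped. The ratio of 144 to 0 h was 0.863 (0.830 to 0.897), and with cells of under 10% mitochondrial UMIs 0.558 (0.501 to 0.620).

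The 3 receptors were also counted together in single Sertoli-like cells of at least 5000 UMIs. A UMI of each was found in 9.13% (7.73 to 10.7) of 1534 cells at 0 h, 33.5% (31.0 to 36.1) of 1343 at 144 h, 36.4% (25.7 to 48.1) of 77 at 350.4 h and 28.3% (16.0 to 43.5) of 46 at 556.8 h. The median depth of these cells was 15361, 19683, 29851 and 25588 UMIs, lowest at 0 h as well. At least 1 receptor UMI and 1 ligand UMI were found in 72.5% (70.2 to 74.7), 87.3% (85.4 to 89.1), 85.7% (75.9 to 92.6) and 89.1% (76.4 to 96.4) of them.

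**Figure D1:**
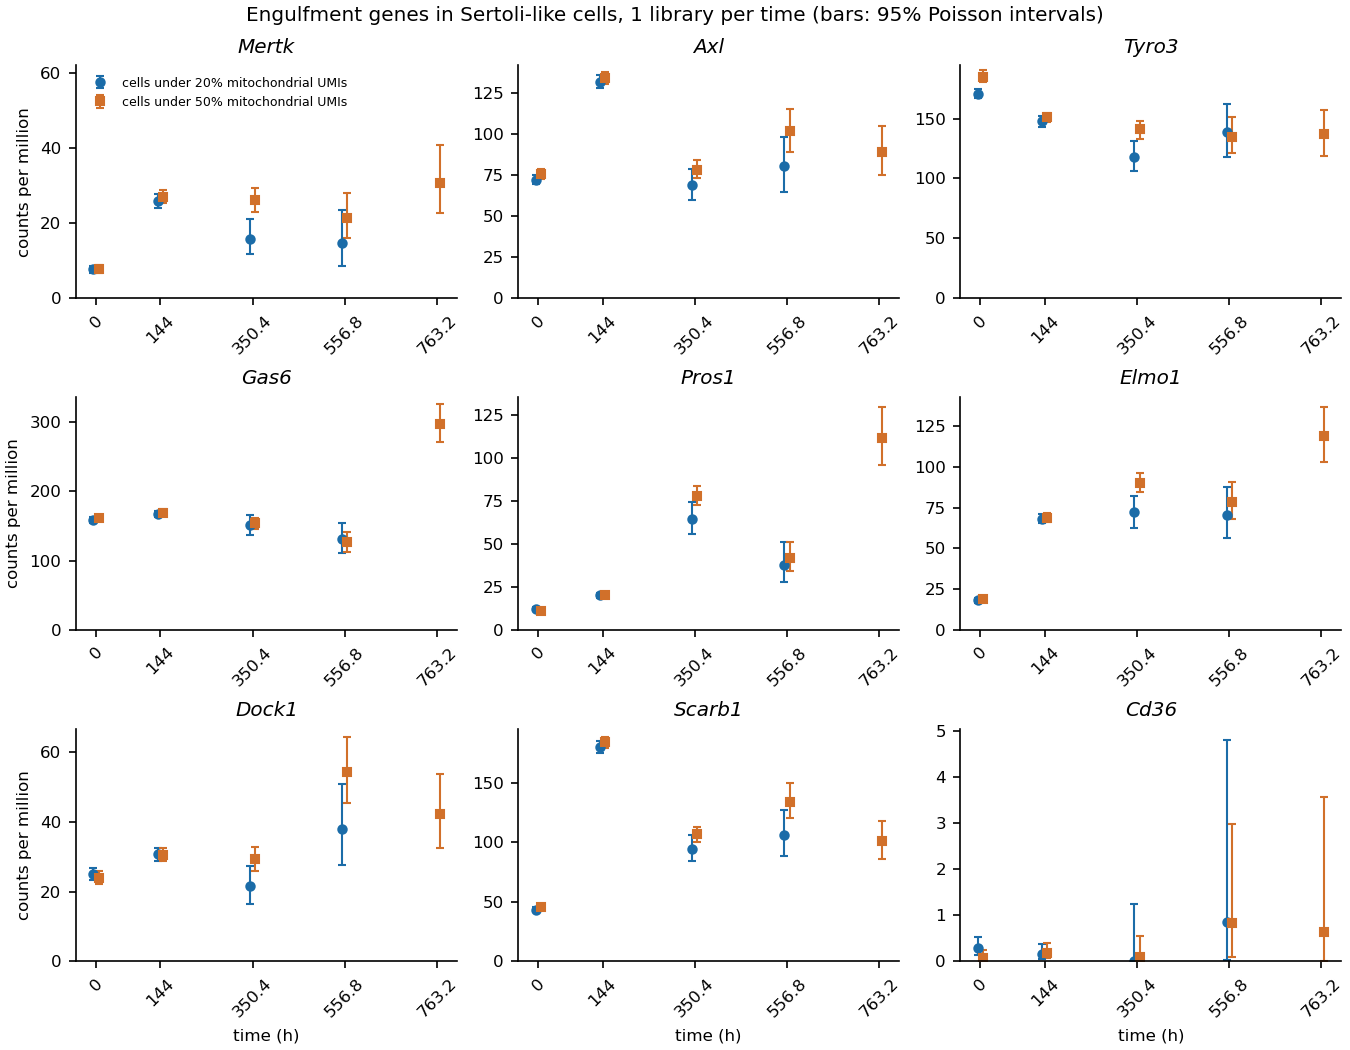
Level of each gene in Sertoli-like cells (vertical axis, CPM of summed UMIs) against time in h (horizontal axis), with 95% Poisson intervals, for cells of under 20% (circles) and under 50% (squares) mitochondrial UMIs. *Mertk*, *Elmo1* and *Scarb1* stand higher at 144 h than at 0 h, *Pros1* stands higher at 350.4 h than at 144 h, and the points of *Cd36* are below 1 CPM throughout.

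Of the ligands, *Gas6*, whose product binds all 3 receptors, was 159 (154 to 163), 168 (163 to 172), 151 (137 to 166) and 131 (111 to 154) CPM in Sertoli-like cells. These levels lay close together, and the ratio of 144 to 0 h was 1.06 (1.02 to 1.10).

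*Pros1*, which also encodes the anticoagulant protein S, was 12.3 (11.2 to 13.5), 20.0 (18.5 to 21.7), 64.7 (55.9 to 74.5) and 37.9 (27.6 to 50.9) CPM. No pair of these intervals overlapped, and the 350.4 h library was highest. *Pros1* was the only 1 of the 8 genes measured that was higher at 350.4 than at 144 h, at 3.23 (2.73 to 3.80), and none was lower, where 9.44% of 12966 genes were higher and 2.50% were lower. With cells of under 10% mitochondrial UMIs the ratio was 2.52 (1.58 to 3.92) and the call was lost. Both the deep cluster 65 and the shallow cluster 24 of the 350.4 h library, at 71.7 and 49.7 CPM, lay above the 144 h level.

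*Elmo1*, the adaptor of the pair that activates Rac, was 18.0 (16.7 to 19.5), 68.2 (65.3 to 71.2), 72.1 (62.8 to 82.4) and 70.7 (56.2 to 87.8) CPM. The 0 h library lay below the other 3, whose intervals overlapped. The ratio of 144 to 0 h was 3.78 (3.46 to 4.14), and 2.59 (2.19 to 3.06) with cells of under 10% mitochondrial UMIs. In those cells the ratio of 350.4 to 144 h was 0.567 (0.311 to 0.960), against 1.06 (0.914 to 1.22) with all cells of under 20%. Over all the processing alternatives given below the ratio of 350.4 to 144 h ran from 0.567 to 1.32.

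*Dock1*, its exchange factor partner, was 25.0 (23.4 to 26.7), 30.7 (28.7 to 32.7), 21.6 (16.6 to 27.5) and 37.9 (27.6 to 50.9) CPM. Its ratio of 144 to 0 h, 1.23 (1.12 to 1.35), had an interval well below that of *Elmo1*. The ratio of 350.4 to 144 h was 0.703 (0.537 to 0.906), and 0.466 (0.197 to 0.948) with cells of under 10% mitochondrial UMIs. Over all the processing alternatives given below it ran from 0.466 to 0.961.

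*Scarb1* was 43.5 (41.3 to 45.7), 180.2 (175 to 185), 94.7 (83.9 to 106) and 106 (88.1 to 127) CPM. The 144 h library was highest and the 0 h library lowest, and neither interval met another. The ratio of 144 to 0 h was 4.15 (3.92 to 4.39), and that of 350.4 to 144 h was 0.525 (0.464 to 0.592).

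*Cd36* had 10, 5, 0 and 1 UMIs in these sums, or 0.283, 0.166, 0 and 0.862 CPM, and 3 UMIs would have been 1.01 CPM at 350.4 h. A *Cd36* UMI was seen in 0.159% (0.0515 to 0.370) and 0.168% (0.0458 to 0.430) of Sertoli-like cells at 0 and 144 h. In germ cells of those libraries it was seen in 0.136% (0.0280 to 0.396) and 0.0350% (0.000886 to 0.195), at median depths of 3720.0 and 14117 UMIs against 4830.0 and 9816. With each cell thinned to 1000 UMIs no Sertoli-like cell of either library had one.

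None of the 8 genes measured was called between 350.4 and 556.8 h, where 6.06% of 10505 genes were higher and 0.762% were lower. *Dock1* had the ratio farthest above 1, 1.76 (1.17 to 2.62), and *Pros1* the one farthest below, 0.587 (0.413 to 0.818). With each cell weighted the same *Dock1* stood at 2.74.

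Across the whole span, *Mertk*, *Pros1* and *Elmo1* were higher at 763.2 h than at 0 h among cells of under 50% mitochondrial UMIs. These were 3 of 8 genes measured, and none was lower, where 15.1% of 13445 genes were higher and 8.49% were lower. *Pros1* was 112 (96.0 to 129.8) against 11.2 (10.0 to 12.5) CPM, a ratio of 9.99 (8.27 to 12.0). *Elmo1* was 119 (103 to 137) against 18.9 (17.4 to 20.6) CPM, a ratio of 6.29 (5.30 to 7.43). *Mertk* was 30.7 (22.6 to 40.7) against 7.70 (6.73 to 8.76) CPM, a ratio of 3.99 (2.86 to 5.47). In cells chosen the same way *Mertk* was 26.9 (25.2 to 28.8), 26.0 (22.9 to 29.3) and 21.4 (16.0 to 28.0) CPM at 144, 350.4 and 556.8 h, and all 3 intervals overlapped with that of 763.2 h. The *Pros1* and *Elmo1* intervals of 763.2 h lay above those of all 4 other times. The median log2 ratio was 1.01 over the 8 and 0.08 over all genes. The 3 calls rest on 175, 186 and 48 UMIs from 77 cells.

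*Scarb1*, at 2.20 (1.85 to 2.59), and *Gas6*, at 1.84 (1.67 to 2.03), had intervals that reached below 2. *Gas6* stood at 298 (271 to 326) CPM in the 763.2 h library and at 127 (113 to 142) at 556.8 h in cells chosen the same way. *Dock1* had a ratio of 1.76 (1.34 to 2.26), *Axl* of 1.18 (0.987 to 1.40) and *Tyro3* of 0.738 (0.641 to 0.846), the only 1 whose interval lay below 1. In these 0 and 763.2 h sums the mitochondrial share was 7.49% and 23.8%, and markers of elongating spermatids summed to 1.72 and 3471 CPM. Their part in the ratios was not tested.

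Germ cells of the same library gave a background that includes free RNA. At 0 h 7 of 8 genes measured were higher in Sertoli-like than in germ cells, where 17.5% of genes were, and *Dock1*, at 1.65 (1.45 to 1.88), was not called. All 8 were higher at 144 h, against 19.8% of genes, at 350.4 h, against 15.3%, and at 556.8 h, against 18.7%. The ratio of *Mertk* was 3.44 (2.51 to 4.81) at 0 h and 27.2 (20.5 to 36.9) at 144 h. That of *Tyro3* was 8.54 (7.73 to 9.46) and 7.03 (6.58 to 7.51). A *Mertk* UMI was found in 6.88% (6.02 to 7.82) and 22.7% (21.1 to 24.5) of Sertoli-like cells at 0 and 144 h and in 1.85% (1.33 to 2.51) and 1.54% (1.12 to 2.06) of germ cells, whose median depths were given above for *Cd36*. With cells thinned to 1000 UMIs *Mertk* was seen in 0.666% (0.413 to 1.02) and 1.51% (1.06 to 2.09) of Sertoli-like cells at 0 and 144 h. In germ cells it was then seen in 0.316% (0.127 to 0.651) and 0.105% (0.0217 to 0.307), and the intervals of the 2 classes overlapped at 0 h. *Axl*, thinned the same way, was seen in 4.98% and 10.5% of Sertoli-like cells at 0 and 144 h and in 1.04% and 0.210% of germ cells. Unthinned, these shares were 35.1% (33.4 to 36.8) and 55.0% (53.0 to 57.0) against 5.47% and 4.73%.

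Macrophage-like cells held another mix of these genes, with more *Cd36* and less *Tyro3* than Sertoli-like cells of the same library. At 0 h *Mertk*, *Elmo1* and *Cd36* were higher and *Tyro3* was lower, 3 and 1 of 9 genes measured, where 8.09% of 13476 genes were higher and 4.13% were lower. At 144 h *Gas6*, *Pros1* and *Cd36* were higher and *Tyro3* and *Scarb1* were lower, 3 and 2 of 9, where 10.2% of 12560 genes were higher and 7.48% were lower. The class came mostly from cluster 41, led by *Hmox1*, *Pf4* and *Lyz2*, at 0 h, from clusters 80 and 41 at 144 h, and from cluster 71, led by *Ccl4*, *Cxcl2* and *Ccl3*, later.

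*Mertk* in macrophage-like cells was 41.0 (28.1 to 57.9) and 53.5 (34.9 to 78.4) CPM at 0 and 144 h, and rested on 3, 1 and 1 UMIs later. The ratio to Sertoli-like cells was 5.38 (3.61 to 7.77) at 0 h and 2.07 (1.34 to 3.05) at 144 h. With cells of under 10% mitochondrial UMIs the latter was 4.17 (2.38 to 7.06), which is a call.

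*Axl* in macrophage-like cells was 37.2, 57.6, 123, 85.4 and 79.9 CPM in time order. The ratio to Sertoli-like cells was 0.516 (0.345 to 0.743) and 0.437 (0.290 to 0.632) at 0 and 144 h, and 1.79 (1.14 to 2.71) at 350.4 h, where cluster 71 held most of the class. The first pair of intervals lay below 1 and the third above it.

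*Tyro3* was 20.5 (11.7 to 33.3) and 22.6 (11.3 to 40.5) CPM, with ratios of 0.120 (0.0685 to 0.195) and 0.153 (0.0764 to 0.274). It had no UMI in the 3 later libraries, where 3 UMIs would have been 14.2, 21.4 and 34.2 CPM. The ratio was 0.0251 at 0 h with cells of at least 5000 UMIs, and 0.0274 (0.000691 to 0.153) at 144 h with cells of under 10% mitochondrial UMIs. The Sertoli markers summed to 2064 and 3075 CPM in the macrophage-like sums of 0 and 144 h, and their part in the *Tyro3* level was not tested.

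*Gas6* was 296 (259 to 337), 574 (509 to 645), 85.3 (50.6 to 135), 42.7 (15.7 to 93.0) and 68.5 (25.1 to 149) CPM in macrophage-like cells in time order. The 144 h library was highest and the 3 later ones were lowest. *Pros1* was 24.4 (14.7 to 38.1) and 109 (81.7 to 143) CPM, a ratio of 4.47 between these libraries with a lower bound of 2.60. Against Sertoli-like cells of 144 h the ratio was 3.42 (3.02 to 3.86) for *Gas6* and 5.44 (4.03 to 7.21) for *Pros1*, the latter 3.12 with each cell weighted the same.

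*Elmo1* was 55.2 (39.9 to 74.3) CPM at 0 h, 3.06 (2.19 to 4.17) times the Sertoli-like level, and 65.8 CPM at 144 h, 0.965 (0.659 to 1.37) times. The 0 h call was lost with cells of under 50% mitochondrial UMIs, at 2.79. Its levels at the 2 times overlapped in macrophage-like cells and did not in Sertoli-like cells. *Dock1* had ratios of 0.821 (0.467 to 1.34) and 0.939 (0.511 to 1.58), both with 1 inside the interval.

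*Scarb1* had a ratio of 0.263 (0.166 to 0.394) at 144 h and of 0.443 (0.247 to 0.733) at 0 h, the latter 1.09 (0.541 to 1.95) with cells of at least 5000 UMIs. *Cd36* was 153 (126 to 183), 69.9 (48.4 to 97.7), 99.6 (61.6 to 152), 35.6 (11.6 to 83.1) and 22.8 (2.76 to 82.4) CPM in macrophage-like cells in time order. The interval of 0 h overlapped with that of 350.4 h and lay above the other 3. Its ratios to Sertoli-like cells, 539.9 (284 to 1155) at 0 h and 420.3 (164 to 1377) at 144 h, rest on 10 and 5 UMIs there. At 0 h the ratio reached 2169 (587 to 18115) with cells of under 50% mitochondrial UMIs.

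**Figure D2:**
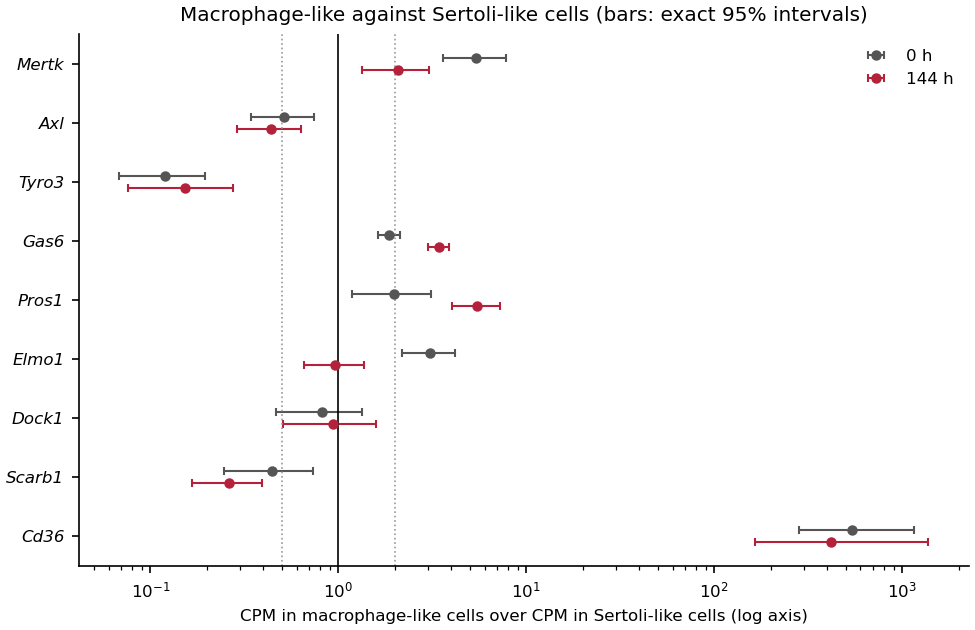
Ratio of the CPM in macrophage-like cells to that in Sertoli-like cells of the same library (horizontal axis, log scale) for each gene (vertical axis) at 0 h (grey) and 144 h (red), with exact 95% intervals and dotted lines at 2-fold either way. *Cd36* lies far to the right and *Tyro3* to the left in both libraries, and the *Elmo1* interval includes 1 at 144 h.

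Among the other somatic classes, *Mertk* was 18.8 (14.6 to 23.8) CPM in peritubular-myoid-like cells at 0 h, the contractile cells around the tubule, above the Sertoli-like level, and 19.0 (15.2 to 23.4) at 144 h, below it. *Axl* was highest in stromal-like cells, at 84.3 (77.0 to 92.0) and 139 (129 to 150.2) CPM, which overlapped with Sertoli-like cells at 144 h. *Tyro3* was highest in Sertoli-like cells at both times. The next class at 0 h was endothelial-like cells, at 65.5 (41.0 to 99.1) CPM from 22 UMIs in 5 of 34 cells. The 55 endothelial-like cells of 144 h had 2 UMIs, or 2.83 CPM. The next class at 144 h was early meiotic spermatocytes, at 29.0 (26.7 to 31.5) CPM.

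*Gas6* was 333 (314 to 352) CPM in Leydig-like cells, the steroid-making cells of the interstitium, and 318 (299.9 to 337) in peritubular-myoid-like cells at 0 h. Both overlapped with macrophage-like cells and lay above Sertoli-like cells. In peritubular-myoid-like cells it was 318, 446, 574, 571 and 636 CPM in time order, lowest at 0 h, and the intervals of the last 3 overlapped. *Pros1* was highest in stromal-like cells, at 61.5 (55.3 to 68.2) and 114 (104 to 123) CPM. Leydig-like cells overlapped with them at 0 h and macrophage-like cells at 144 h.

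The Rac activators differed in the classes that held them. *Elmo1* was 101 (70.1 to 141) and 97.8 (76.1 to 124) CPM in endothelial-like cells at 0 and 144 h, 0.545 and 1.32 in peritubular-myoid-like and 0.684 and 1.61 in stromal-like cells. *Dock1* was 56.5 (34.0 to 88.3) and 63.8 (46.5 to 85.3) CPM in endothelial-like, 44.4 and 27.1 in peritubular-myoid-like and 55.2 and 40.5 in stromal-like cells.

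*Scarb1* was 228 (212 to 244) and 317 (299 to 337) CPM in Leydig-like cells, which use its product to take up cholesterol, and 119 (85.0 to 162) and 411 (365 to 461) in endothelial-like cells. Both classes lay above Sertoli-like cells at both times. In round spermatids *Scarb1* was 92.2 (76.5 to 110.2), 54.6 (45.4 to 65.0) and 37.0 (34.6 to 39.5) CPM at 350.4, 556.8 and 763.2 h, and in elongating spermatids *Elmo1* was 12.3 (10.7 to 14.2) and 9.57 (7.98 to 11.4) at the last 2 of these times. *Cd36* had 84 UMIs in endothelial-like cells of 0 h, all from 2 of 34 cells. The 55 endothelial-like cells of 144 h had none, where 3 UMIs would have been 4.25 CPM.

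**Figure D3:**
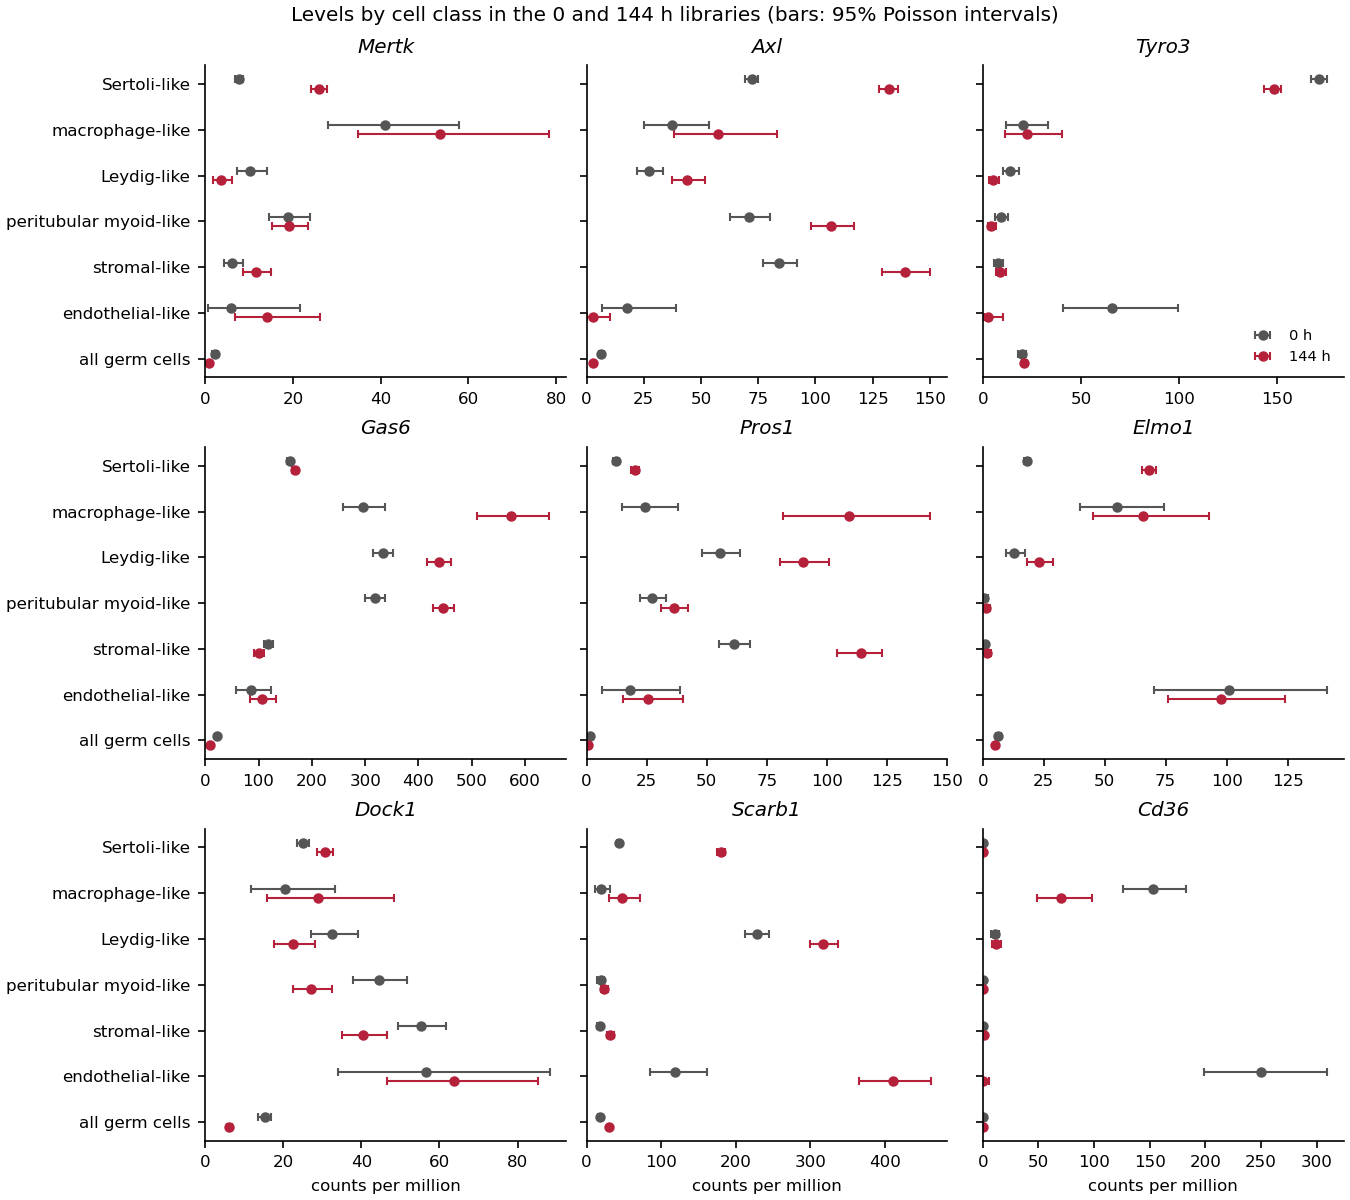
Level of each gene (horizontal axis, CPM of summed UMIs) in 6 somatic classes and all germ cells (vertical axis) at 0 h (grey) and 144 h (red), with 95% Poisson intervals. *Tyro3* is highest in Sertoli-like cells, *Gas6* is higher in macrophage-like, Leydig-like and peritubular-myoid-like than in Sertoli-like cells, and the *Cd36* level of endothelial-like cells at 0 h comes from 2 cells.

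The class that held most of a gene's UMIs differed between libraries along with the cells caught. Sertoli-like cells were 40.8% of kept cells at 0 h and 0.145% at 763.2 h, and 21.0% and 0.668% with cells of under 50% mitochondrial UMIs. At 763.2 h another 619 cells of under 20%, led by Sertoli genes, formed a cluster that stayed unnamed by the rule for names and are not counted as Sertoli-like. The shares of UMIs at 763.2 h are given for both sets of cells, under 20% first and under 50%, chosen after seeing the data, second. Sertoli-like cells held 89.3% (88.6 to 90.1) of the *Tyro3* UMIs of kept cells at 0 h and 22.2% (16.9 to 28.4) or 54.0% (49.0 to 59.0) at 763.2 h. Of the *Mertk* UMIs they held 76.2% (73.4 to 78.8) at 144 h and 20.7% (7.99 to 39.7) or 64.0% (52.1 to 74.8) at 763.2 h. Of the *Elmo1* UMIs they held 80.7% (79.1 to 82.3) at 144 h and 11.2% (8.37 to 14.5) or 31.7% (28.0 to 35.7) at 763.2 h. The first of each pair rests on 16 Sertoli-like cells. Macrophage-like cells held at most 6.29% (4.34 to 8.76) of the *Mertk* UMIs in any library. Germ cells were 93.4% or 93.1% of kept cells at 763.2 h. There they held 94.9% (93.7 to 95.9) or 88.0% (86.4 to 89.4) of the *Scarb1* UMIs. Of the *Pros1* UMIs they held 79.4% (75.2 to 83.2) or 59.0% (54.8 to 63.1), below their share of cells.

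**Figure D4:**
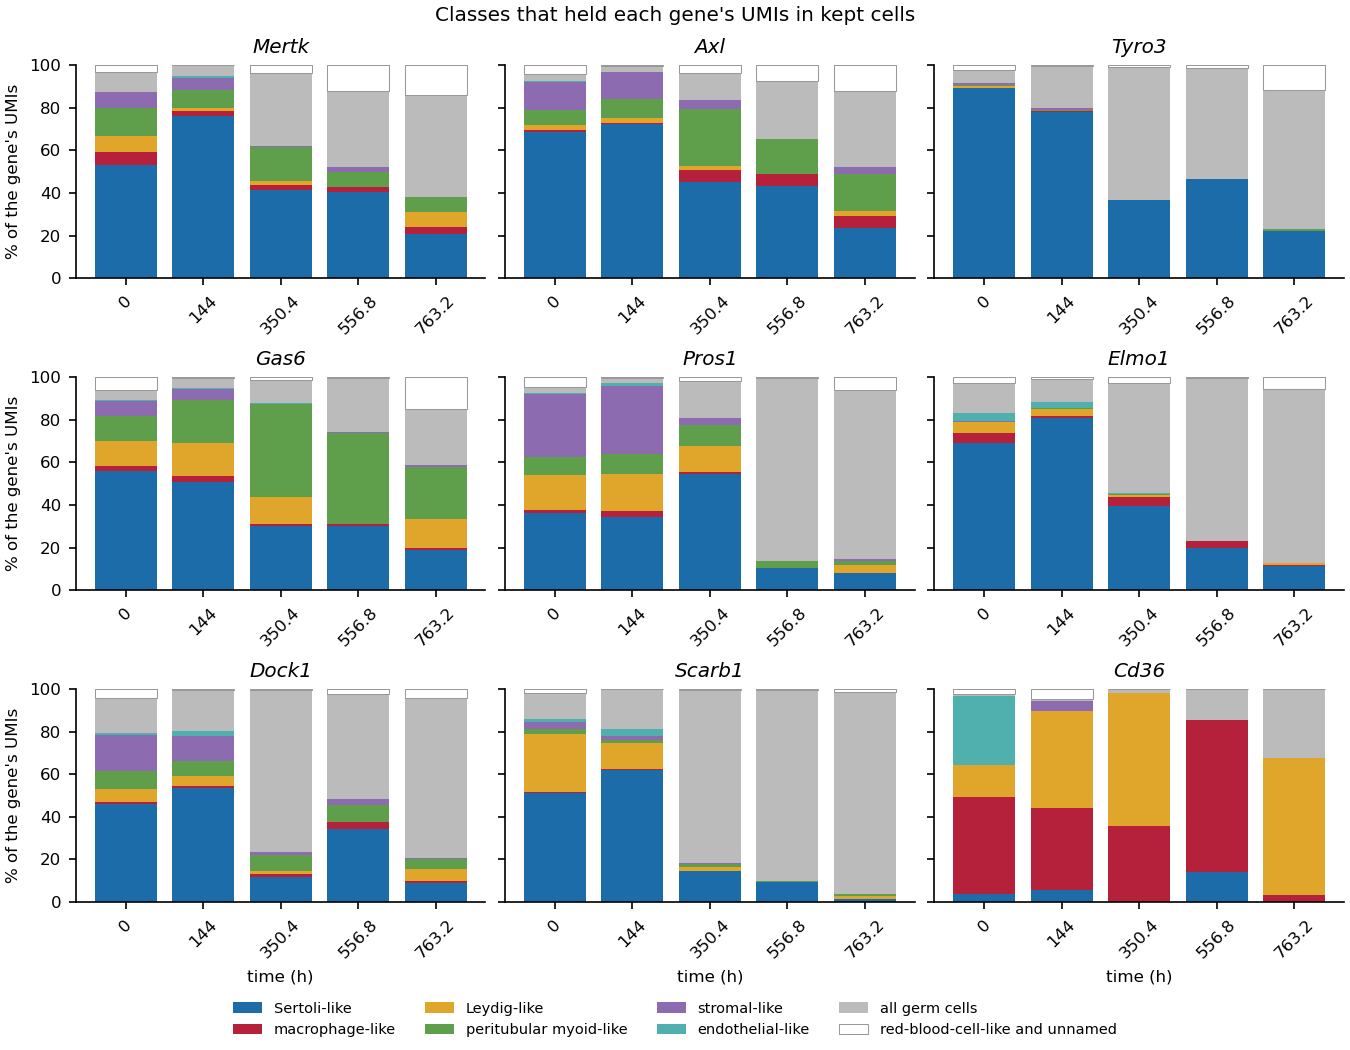
Share of each gene's UMIs in kept cells of under 20% mitochondrial UMIs (vertical axis, percent) held by each cell class (colours) in the 5 libraries (horizontal axis, time in h). Sertoli-like cells held most of the *Tyro3* and *Elmo1* UMIs at 0 and 144 h. Germ cells, 98.4% and 93.4% of kept cells at 556.8 and 763.2 h, held most of the *Scarb1*, *Pros1* and *Elmo1* UMIs then.

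Likeness of pattern was measured as Pearson's r of log2(CPM + 5) over 46 sums of a class in a library. These points share libraries and differ in depth, and r is a description. The 3 genes most like *Mertk* were *Scarb2* (0.92), *Stard8* (0.90) and *Lipa* (0.90), those most like *Axl* were *Zeb2* (0.95), *Cd302* and *Ucp2*, and those most like *Tyro3* were *Pard6b* (0.93), *Scrn2* and *Tspyl2*. For the ligands they were *S100a10* (0.96), *Sh3bgrl* and *Slc48a1* with *Gas6*, and *Phyh* (0.91), *Sult1a1* and *Anxa2* with *Pros1*. *Elmo1* had *Parvb* (0.91), *Ptpre* and *Apobec3*, and *Dock1* had *Cr1l* (0.95), *Rsu1* and *Klf13*. *Scarb1* had *Cobll1* (0.84), *Erf* and *Exoc3l*, and *Cd36* had *Hcst* (0.85), *Lyn* and *Man1a*. Between the 9 genes themselves r was 0.89 for *Axl* with *Gas6*, 0.86 for *Gas6* with *Pros1*, 0.31 for *Mertk* with *Tyro3* and 0.47 for *Elmo1* with *Dock1*.

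Genes that act around these 9 were read from 6 lists, with the same background as above. Of other phosphatidylserine and apoptotic cell receptors and bridges, 3 of 7 measured were higher in Sertoli-like cells at 144 than at 0 h. Of these 7, 0 were lower, where 7.57% of all genes were higher and 14.1% were lower. The median log2 ratio was 0.55 against -0.12 over all genes. *Mfge8*, whose product bridges phosphatidylserine to integrins, was 103 against 45.4 CPM, a ratio of 2.26 (2.13 to 2.40). *Itgb5*, a subunit of such an integrin, had a ratio of 2.48 (2.31 to 2.67), and *Thbs1*, which encodes a ligand of CD36, one of 4.43 (3.61 to 5.45). At 763.2 against 0 h 3 of 6 were higher and 0 lower, where 15.1% and 8.49% of all genes were. The median there was 1.55 against 0.08. There *Mfge8* had 9.40 (8.54 to 10.3), *Itgb5* 5.57 (4.87 to 6.36) and *Thbs1* 5.22 (3.28 to 8.07), and both comparisons share the 0 h library.

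Of 12 genes of Rac activation measured at 144 against 0 h, 0 were higher and 2 were lower, with a median log2 ratio of -0.31. The share that was lower is near the 14.1% of all genes. The lower ones were *Crkl*, an adaptor, at 0.270 (0.175 to 0.403), and *Gulp1*, an adaptor of engulfment receptors, at 0.0588 (0.0157 to 0.157) on 4 UMIs at 144 h. At 763.2 against 0 h *Rac1* was 58.9 against 165 CPM, a ratio of 0.357 (0.288 to 0.439), the only call among 12, with a median of -0.53. This share is near the 8.49% of all genes that were lower.

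Of 12 genes of lipid handling, 1 was higher and 1 was lower at 144 h, where 7.57% and 14.1% of all genes were. These shares are near the former and below the latter. *Nr1h3*, a nuclear receptor for oxysterols, was higher, at 3.83 against 0.311 CPM, a ratio of 12.3 (6.63 to 25.3). Its partner *Rxra* was lower, at 0.314 (0.242 to 0.403), and the list's median log2 ratio was -0.08. At 763.2 against 0 h *Abcg1*, a cholesterol exporter, was the only call among 10, at 0.182 (0.0494 to 0.470) on 4 UMIs, with a median of -0.45. In that comparison 8.49% of all genes were lower.

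Of 3 genes for signals that hold back engulfment, *Cd47* was lower at 144 h, at 0.292 (0.258 to 0.329), and so was *Cd24a*, at 0.144 (0.0720 to 0.263), with a list median of -1.78. Of all genes 14.1% were lower at 144 than at 0 h. *Cd47* had 4 of 1562900 UMIs at 763.2 h against 975 of 29627135 at 0 h, the only call among 3. There 8.49% of all genes were lower. None of 9 genes of ligand processing and signal control and none of 9 of LC3-associated phagocytosis was called at 144 h, with medians of -0.33 and 0.32. In the former list *Socs1* and *Socs3*, inhibitors of cytokine signals, were higher at 350.4 than at 144 h, 2 of 7 measured, at 3.43 and 3.93 (3.01 to 5.10). Between those times 9.44% of all genes were higher. *Socs3* was also the only call of that list at 763.2 against 0 h, where the sums had the sizes given for *Cd47*. It had 241 UMIs at 0 h and none at 763.2 h, where 3 would have been 1.92 CPM. None of 9 genes of LC3-associated phagocytosis was called at 763.2 against 0 h. No other list gene was called between 144 and 350.4 h, and none was between 350.4 and 556.8 h. Against Sertoli-like cells of the same library, macrophage-like cells had 6 of 11 genes of lipid handling higher and 0 lower at 0 h. At 144 h they had 11 of 13 higher and 0 lower. Of all genes 8.09% and 10.2% were higher and 4.13% and 7.48% lower at these times. The list's median log2 ratios were 1.53 and 3.88 against 0.07 and 0.08 over all genes. At 350.4 and 556.8 h 2 of 8 and 0 of 4 genes of this list were higher and none lower. There 6.48% and 4.40% of all genes were higher and 9.99% and 8.67% lower, and the medians were 1.03 and -0.26 against -0.30 and -0.12.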

How the data were processed

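Whole-testis cell suspensions were profiled in 5 libraries. The deposited matrices hold whole-number UMI counts for each gene and barcode; their headers name Cell Ranger 3.0.2 as the program. In the submitters' processing notes appear mm10 and Seurat 4.3.0.1, with no stated use. How reads were aligned and cells called is not stated in any source used here. Groups came from the sample titles.

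Barcodes were kept with at least 1000 UMIs, 500 genes, under 20% mitochondrial UMIs and a Scrublet score (scanpy 1.11.5, expected rate 0.08) of at most 0.25, which removed 154, 317, 169, 334 and 437; the automatic thresholds would have removed 1, 317, 40, 1 and 0. Clustering used 3000 variable genes without the 9 genes and the lists (unless a marker), 40 components, 15 neighbours and Leiden (igraph 0.11.9) at resolution 2, and gave 84 clusters. A cluster took its best-scoring marker class where the score was at least 0.75, led by 0.25 and rested on at least 3 markers. No other class could have more markers among its 10 leading genes, and a shallow cluster needed a marker of its own class there. Other clusters joined the germ cells, without a stage, where germ classes ranked best and second at a score of at least 0.2. They too needed 3 markers, and no somatic marker among their 10 leading genes. Such cells were 5227 of 10307 germ cells at 763.2 h. The limits for names and the doublet score were taken from an earlier analysis that had set them with the data in view. The 9 genes and lists were chosen with earlier results of these data known.

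UMIs were summed per class and library with at least 20 cells. Exact Poisson intervals were given to CPM and exact conditional binomial intervals to ratios. Only the latter were tested on simulated data, which were Poisson sums without differences between cells. Shares have Clopper-Pearson intervals. All 9 genes were named, and of each list the called genes with the highest and lowest ratio; *Itgb5* was added after its values were seen. Genes alike in pattern were the 3 of highest r among 9267 that reached 50 CPM.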

Additional observations from a re-analysis of the deposited data

Results flagged for a closer look

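Between 0 and 144 h *Mertk*, *Gas6*, *Pros1* and *Dock1* stood higher in some cell classes and lower in others, with intervals on either side of 1. A gene was flagged only if it was also called past 2-fold in at least 1 class. *Axl* was called in none and so was not flagged. Its level was 72.1 and 132 CPM in Sertoli-like cells at 0 and 144 h, and 6.42 (5.37 to 7.61) and 2.63 (2.21 to 3.10) in germ cells. Each class has 1 library per time, and the difference between classes was not tested. Within a class the cells at the 2 times were not alike: of 2213 germ cells at 0 h 2118 were undifferentiated spermatogonia, while of 2857 at 144 h 1416 were early meiotic spermatocytes and 880 differentiating spermatogonia. Peritubular-myoid-like cells came mostly from cluster 48 at 0 h (251 cells) and from cluster 22 at 144 h (386), and stromal-like cells from cluster 31 (351) and cluster 28 (378). Sertoli-like cells, and in part macrophage-like cells, also lay in different clusters at these times, and the part of this in the ratios was not tested. *Mertk* had a ratio of 144 to 0 h of 3.39 in Sertoli-like and 1.87 in stromal-like cells, and of 0.428 in germ cells and 0.339 in Leydig-like cells. *Gas6* had ratios of 1.94 in macrophage-like, 1.40 in peritubular-myoid-like, 1.32 in Leydig-like and 1.06 in Sertoli-like cells, and of 0.850 in stromal-like and 0.382 in germ cells. *Pros1* had ratios of 4.47 in macrophage-like, 1.85 in stromal-like, 1.62 in both Leydig-like and Sertoli-like and 1.33 in peritubular-myoid-like cells, and of 0.518 in germ cells. *Dock1* had a ratio of 1.23 in Sertoli-like cells, and of 0.734 in stromal-like, 0.688 in Leydig-like, 0.611 in peritubular-myoid-like and 0.404 in germ cells.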

How the results depend on the processing

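The alternatives were cells of under 10% or under 50% mitochondrial UMIs, cells of at least 5000 UMIs, no doublets removed, resolution 1, each library clustered alone, the 9 genes and lists allowed in the clustering, each cell weighted the same, UMIs outside mitochondrial genes, 5% free RNA subtracted, ratios over the median of all genes, a 1.5-fold limit, minimums of 50 or 1 UMIs and, chosen after seeing the data, cells of at least 10000 UMIs. No called ratio changed sign under them. Of 172 recomputed counts of called genes 163 stayed within 1.5 times the reported count. Of 717 recomputed ratios of single genes 636 stayed within the counting interval of the reported ratio and 81 moved past it. The 1.5-fold limit and the minimums of 50 or 1 UMIs cannot change a ratio. Their ratios are among the 636 by construction and say nothing on stability. With under 10% mitochondrial UMIs 0 genes were higher at 350.4 than at 144 h. With each cell weighted the same, which gives ratios without intervals, 4 were lower at 350.4 than at 144 h, 1 was higher at 556.8 than at 350.4 h, 5 were higher at 763.2 than at 0 h and 2 were lower in macrophage-like than in Sertoli-like cells at 0 h. At 1.5-fold 2 were lower at 350.4 than at 144 h and 5 were higher at 763.2 than at 0 h. With UMIs outside mitochondrial genes 5 were higher at 763.2 than at 0 h, *Gas6* at 2.23 (2.03 to 2.46) and *Scarb1* at 2.67 (2.25 to 3.15) among them. Over the median of all genes 1 was lower in macrophage-like cells at 144 h, where *Scarb1* had 0.350 (0.222 to 0.526). The cause of these shifts was not tested. Under 20 cells were left for 556.8 against 350.4 h and 763.2 against 0 h with under 10% mitochondrial UMIs, and for macrophage-like cells at 0 h with at least 10000 UMIs, so these were not run. No paired analysis was possible because each time has 1 library.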

Other observations

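Unnamed cells of the 763.2 h library, in no class above, numbered 622, of which 619 formed cluster 17. The genes leading that cluster include *Ptgds*, *Tsx*, *Cst9* and *Rhox5*, while its highest marker score was for round spermatids. In the unnamed cells *Gas6* was 72.4 (59.1 to 87.8) CPM, *Tyro3* was 17.6 (11.4 to 25.9) and *Axl* was 10.5 (5.90 to 17.4). Germ cells of that library had 1.71, 1.30 and 0.407 CPM.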
